A study of Mus musculus with 6 samples.

Results

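The enzymes Gpi1, Gapdh and Pgk1 catalyse 3 steps of glycolysis, and their RNA was measured in sperm of control and cadmium-exposed mice with 5 array probes. Gpi1 was read by the catalogue probe A_51_P426886, Gapdh by the control probes Mouse-GAPDH_3 and Mouse-GAPDH_5, and Pgk1 by Mouse-PGK1_3 and Mouse-PGK1_5, so the members were 5 probes of 3 genes on an array with 60823 non-control probes, of which 45 could be named by a gene symbol. They are 3 of the 47 genes that a named probe represents on it. Each probe was printed in 10 spots per array. By name, the numbers 3 and 5 of the control probes give the end of the transcript they read, and they are called the 3′ and 5′ probes here.

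The study compared the sperm of male C57BL/6 mice in 2 groups of 3 biological replicates. Mice were assigned at random at 5 weeks of age: the control group drank control water for 10 weeks, and the Cd group drank water with 100 mg/L CdCl2 (cadmium chloride) over the same 10 weeks. Sperm of both groups was taken at 15 weeks of age, and total RNA was extracted with Trizol. From every sample an immunoprecipitated RNA fraction (IP, labelled with Cy5) and the remaining supernatant ("Sup", labelled with Cy3) were hybridised together on 1 array, which gave 6 two-colour arrays. What the immunoprecipitation was directed against is not stated in the labels, and no dye swap is described, so the fraction and the dye cannot be told apart on any array. Whether a replicate was 1 animal or a pool of animals is not given either. A comparison of IP with supernatant asks how the RNA of a gene was divided between the fractions, and a comparison of Cd with control asks whether the division or the amount differed with the exposure.

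Glycolysis converts glucose to pyruvate with a net yield of ATP. Gpi1 (glucose-6-phosphate isomerase 1) converts glucose-6-phosphate to fructose-6-phosphate in the upper, preparatory stage of the pathway. Gapdh (glyceraldehyde-3-phosphate dehydrogenase) and Pgk1 (phosphoglycerate kinase 1) catalyse successive steps of the lower, energy-yielding stage, and Pgk1 forms the first ATP of the pathway. Sperm use glycolysis along the principal piece of the flagellum to power movement, and male germ cells carry their own forms of these last 2 enzymes, Gapdhs and Pgk2, while Gapdh and Pgk1 are the forms of most other cells. Neither germ-cell form had a named probe here.

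The share of probes well above background ran from 28.2% to 44.7% in the IP channel of the 3 control arrays and from 43.7% to 49.2% in that of the 3 Cd arrays. For the supernatant these ranges were 35.1% to 44.0% and 45.5% to 49.7%. Control replicate 1 had the lowest share in both channels. The file headers place the 3 control arrays in 1 scan record and the 3 Cd arrays in another, so scan and group cannot be told apart. Of 23 sperm and spermatid markers sought, 3 had a named probe: Cep41, which encodes a centrosomal protein, was well above background in both channels on all 6 arrays, Hyal3, a hyaluronidase of sperm, was so on 6 arrays in the IP and on 1 in the supernatant, and Spats1 was not well above background on any array. None of 7 leukocyte, 7 epithelial, 7 Sertoli and Leydig cell and 3 blood markers had a named probe. A contribution of such cells was therefore not tested, and in bulk sperm RNA fewer cells of a type and less RNA per cell cannot be told apart.

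Transcripts of all 3 enzymes were detected in both fractions. The Gpi1 probe, both Gapdh probes and the Pgk1 3′ probe, 4 of the 5, were well above background in both channels on all 6 arrays, and 0 of their spots were saturated. The Pgk1 5′ probe was not well above background. The brightness of different probes is not comparable, because probes differ in how well they hybridise.

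**Figure D1:**
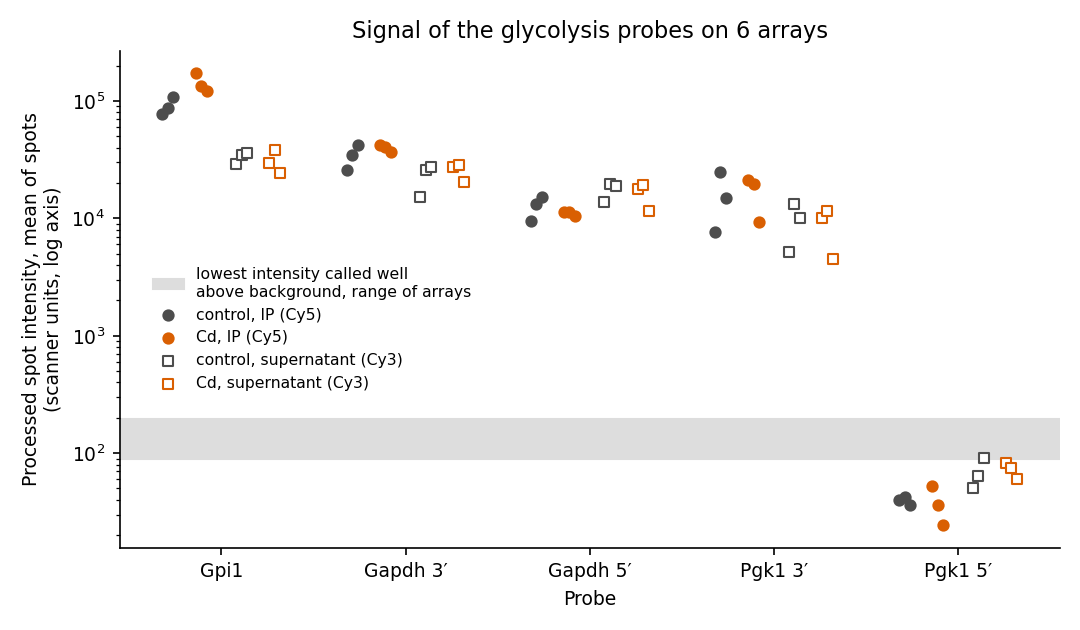
Processed spot intensity (scanner units, log axis) of the 5 probes in the IP (filled circles) and supernatant (open squares) of 3 control and 3 Cd arrays, each point the mean of 8 to 10 spots on 1 array. The Pgk1 5′ probe lies at or below the grey band, which spans the lowest intensity called well above background on the arrays (88.4 to 195), and the other 4 probes lie far above it.

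Gpi1 gave a stronger signal in the IP than in the supernatant on every array. Its processed IP intensity was 77766, 87209 and 108651 on control arrays 1 to 3 and 172077, 133153 and 121603 on Cd arrays 1 to 3. Its supernatant intensity was 29201, 34972 and 36271 in control and 29888, 38139 and 24395 in Cd. The mean IP intensity was 91209 ± 15826 (SD, n = 3) in control and 142278 ± 26445 (SD, n = 3) in Cd. For the supernatant the means were 33481 ± 3763 (SD, n = 3) and 30807 ± 6918 (SD, n = 3). These intensities are not scaled between arrays, and the brightness of the arrays differed. The 75th percentile of the non-control probes in the IP was 296 to 475 in control and 450 to 499 in Cd. The IP signal was on average 2.71 times the supernatant signal in control sperm and 4.64 times in Cd sperm, from the mean log2 ratio before centring.

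The ratio repeated closely between the spots of a probe on 1 array. Within 1 array the SD of the Gpi1 log2 ratio over 8 to 10 spots was 0.036 to 0.12. The SD between the arrays of a group was 0.12 in control and 0.34 in Cd. The spread among the Cd arrays was thus above that among spots, and spots were averaged before any comparison of groups.

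The ratio of IP to supernatant, as log2 and centred on the median of the array's non-control probes, was higher for Gpi1 in Cd sperm than in control sperm. It was 1.39, 1.34 and 1.57 on control arrays 1 to 3 and 2.53, 1.84 and 2.24 on Cd arrays 1 to 3. All 3 Cd arrays were above all 3 control arrays. Groups did not overlap, in either direction, for 10.1% of the 23826 probes tested, and for 4.91% the Cd arrays were the higher ones. The mean was 1.43 ± 0.12 (SD, n = 3) in control and 2.20 ± 0.34 (SD, n = 3) in Cd, a difference of 0.77 (limma, SE 0.27, 95% interval 0.17 to 1.38) that corresponds to a 1.71-fold higher ratio. The unadjusted limma p was 0.018, and 5.04% of all probes tested had one under 0.05. The Benjamini-Hochberg adjusted limma p was 0.96, so the difference did not pass. At the adjusted threshold of 0.05, 0.0042% of the probes passed.

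**Figure D2:**
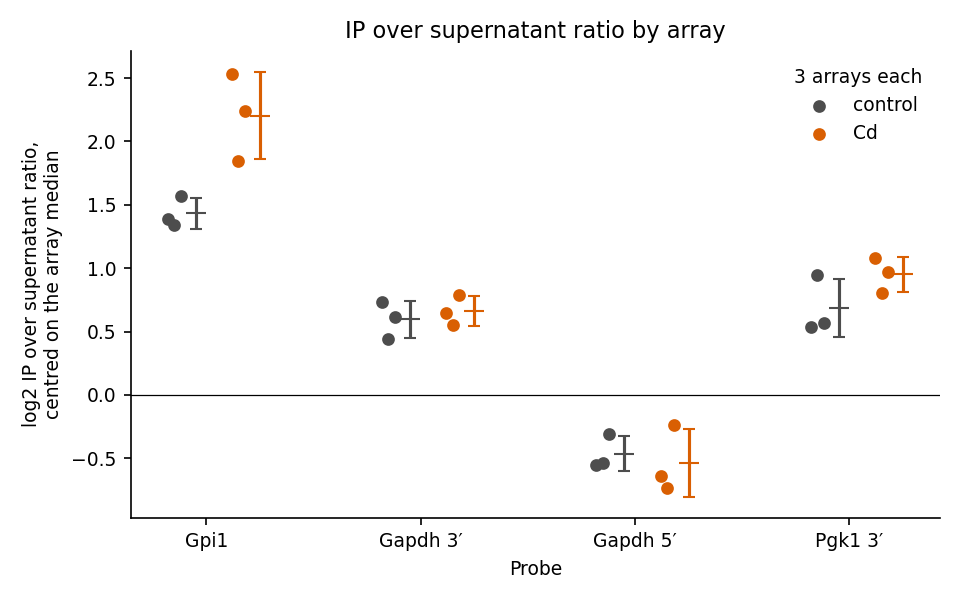
Log2 ratio of IP over supernatant, centred on the array median, for the 4 probes above background; points are single arrays and bars the group mean ± SD (n = 3). The Gpi1 points of Cd (1.84 to 2.53) lie above those of control (1.34 to 1.57), and the groups overlap for the Gapdh and Pgk1 probes.

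The size of the Gpi1 difference depended on how the dyes were balanced. The scanner software rescales each channel by a dye normalization, and before that step the log2 ratio of Gpi1, not centred, was 1.26, 1.53 and 2.19 on control arrays 1 to 3 and 2.00, 2.47 and 1.87 on Cd arrays 1 to 3. The groups overlapped at that stage, since control array 3 was above Cd arrays 1 and 3. The means were 1.66 ± 0.47 (SD, n = 3) and 2.11 ± 0.32 (SD, n = 3), a difference of 0.46 (exact 2-sided permutation p = 0.3, smallest possible 0.1).

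The step itself moved the Gpi1 ratio by 0.15, -0.21 and -0.60 in control and by 0.52, -0.67 and 0.45 in Cd. Its mean was thus higher in Cd by 0.32 (exact permutation p = 0.6). Over 23456 probes the median of the same difference was -0.20, and 1.15% of probes had one as large as that of Gpi1 or larger. Centred on the array median before the dye step, the Gpi1 difference was 0.26 (limma, unadjusted p of 0.33, adjusted p = 0.99), and with normexp background correction of the raw signals it was 0.44 (limma, unadjusted p of 0.13, adjusted p = 1.00). The direction was the same in all 19 alternatives computed, from 0.26 to 0.95, and the adjusted limma p lay between 0.75 and 1.00. Alternatives that changed only the filter, the block or the variance model left the estimate at 0.77, so their direction was fixed in advance. Without Cd replicate 1 the difference was 0.61, with an unadjusted limma p of 0.081.

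**Figure D3:**
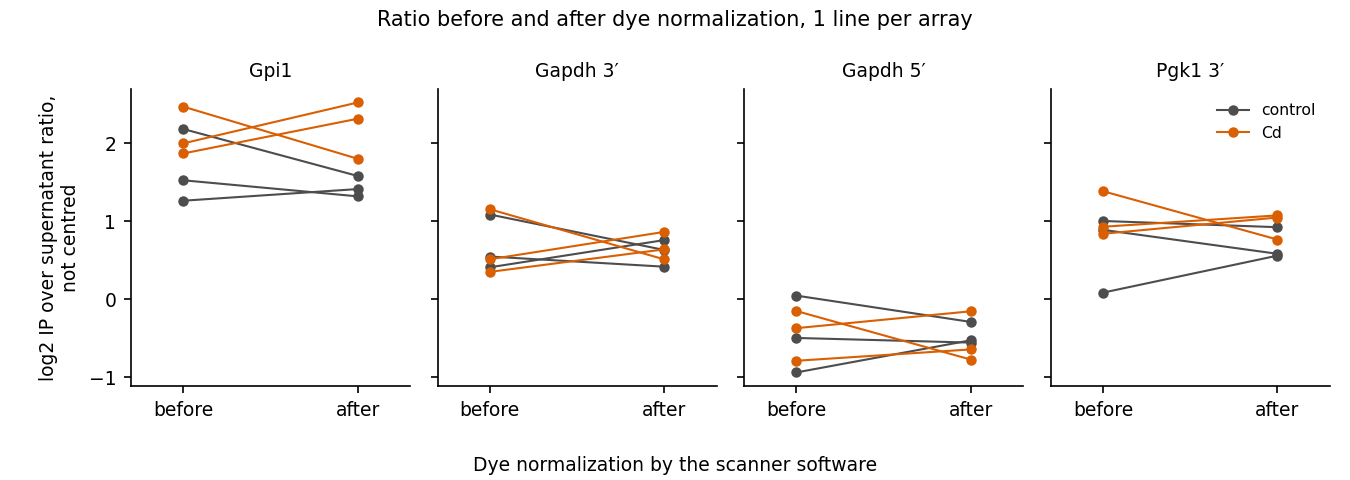
Log2 ratio of IP over supernatant, not centred, before and after the dye normalization of the scanner software, 1 line per array, for the 4 probes above background. For Gpi1 control and Cd arrays overlap before the step (1.26 to 2.19 against 1.87 to 2.47) and are apart after it.

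Neither fraction alone nor their sum set the groups apart by the test. Signals of a single channel, and of both channels summed (the RNA level), are given as log2 relative to the 75th percentile of the array. The sum gives both dye-normalized channels equal weight, so it is not a measured total of RNA over the fractions. The IP signal of Gpi1 was 8.04, 7.60 and 7.84 in control and 8.43, 8.07 and 8.08 in Cd, and these ranges did not overlap by a narrow margin. Non-overlap in either direction was found for 16.3% of the 27453 probes tested in the IP, and in the same direction for 7.66%. The difference was 0.37 (limma, SE 0.25, adjusted p = 0.72), and it was 0.024 after quantile normalization between arrays. The supernatant signal was 6.53, 6.27 and 6.25 in control and 5.90, 6.28 and 5.77 in Cd. These ranges overlapped at Cd array 2, and the difference was -0.37 (limma, SE 0.23, adjusted p = 0.60). It changed sign, to 0.14, with normexp background correction.

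The RNA level of Gpi1, over both fractions, was 7.35, 6.95 and 7.13 in control and 7.55, 7.34 and 7.24 in Cd, with overlap between control array 1 and Cd arrays 2 and 3. The difference was 0.23 (limma, SE 0.20, 95% interval -0.22 to 0.69, adjusted p = 0.70). It was 0.0047 after quantile normalization, 0.45 with normexp background correction, and 0.14 without control replicate 2 as well as without Cd replicate 1. The amount of Gpi1 RNA was thus not shown to differ between the groups.

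Gapdh, which oxidises glyceraldehyde-3-phosphate and reduces NAD+, was read at both ends of its transcript. The 3′ probe had processed IP intensities of 25760, 34752 and 42577 on control arrays 1 to 3 and 42423, 40834 and 36968 on Cd arrays 1 to 3. Its supernatant intensities were 15242, 26070 and 27528 in control and 27208, 28684 and 20305 in Cd. Both fractions overlapped between the groups, and control replicate 1 was the lowest array in each. The IP signal was 1.52 times the supernatant signal in control and 1.59 times in Cd, from the mean log2 ratio before centring.

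The Gapdh 3′ ratio, centred, was 0.73, 0.44 and 0.62 in control and 0.64, 0.55 and 0.79 in Cd, so the groups overlapped throughout. The difference was 0.064 (limma, SE 0.24, 95% interval -0.48 to 0.60, adjusted p = 0.99). It turned to -0.21 before dye normalization and to -0.015 without control replicate 2. Relative to the 75th percentile, the difference was -0.018 in RNA level (95% interval -0.42 to 0.38), -0.022 in the IP and -0.051 in the supernatant, each with overlapping groups and adjusted limma p of 0.94 or more. With normexp background correction these 3 differences were 0.30, 0.27 and 0.32. The intervals leave room for a fold of about the same size in either direction, so an equal amount was not shown.

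The Gapdh 5′ probe was the only measured probe with less signal in the IP than in the supernatant on all 6 arrays; before dye normalization its log2 ratio was 0.046 on control array 3 and below 0 on the other 5. Its IP intensities were 9560, 13325 and 15310 in control and 11312, 11308 and 10447 in Cd. Its supernatant intensities were 13750, 19604 and 18751 in control and 17679, 19355 and 11632 in Cd. The IP signal was 0.73 times the supernatant signal in control and 0.70 times in Cd. The centred log2 ratio was -0.55, -0.54 and -0.31 in control and -0.64, -0.73 and -0.23 in Cd, with overlap, and the difference was -0.071 (limma, SE 0.25, 95% interval -0.65 to 0.51, adjusted p = 0.99). It turned to 0.0085 without control replicate 3 and to 0.028 without Cd replicate 2.

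Relative to the rest of the array, the 5′ end of Gapdh was lower in Cd sperm, but the difference did not pass the test. Its IP signal was 5.01, 4.89 and 5.01 in control and 4.50, 4.52 and 4.54 in Cd, and its RNA level 5.15, 5.06 and 5.04 in control and 4.75, 4.85 and 4.51 in Cd. In both measures every Cd array was below every control array. Non-overlap in this direction was found for 8.65% of all probes in the IP and for 8.88% of the 30560 probes tested in RNA level, while in RNA level the Cd arrays were the higher ones for 10.6%, and non-overlap in either direction was found for 19.5%. The differences were -0.45 in the IP (limma, SE 0.22, unadjusted p of 0.073, adjusted p = 0.64) and -0.38 in RNA level (limma, SE 0.18, unadjusted p of 0.073, adjusted p = 0.51). The supernatant signal was 5.45, 5.44 and 5.30 in control and 5.14, 5.30 and 4.70 in Cd, which overlapped, with a difference of -0.35 (limma, SE 0.23, adjusted p = 0.62). With normexp background correction the 3 differences were -0.088, -0.066 and -0.025, in that order, and the supernatant difference was -0.17 without Cd replicate 3.

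**Figure D4:**
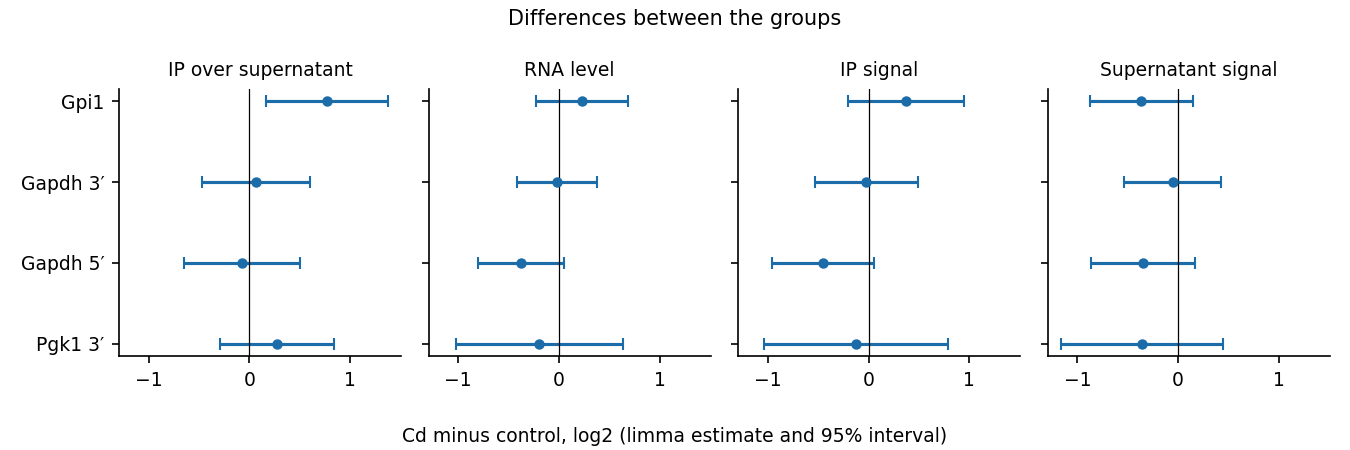
Cd minus control difference in log2 units (points) with its 95% interval from limma (bars), for the 4 probes above background and each of the 4 measures. The interval of the Gpi1 ratio (0.17 to 1.38) is the only one of the 16 that does not include 0, and no adjusted p passed 0.05.

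The 2 ends of Gapdh were then compared on the same array and channel, a difference that needs no scaling between arrays. As the probes may hybridise unequally, the value itself is not a ratio of transcript ends, and only its change between arrays is comparable. In the IP the 5′ minus 3′ log2 signal was -1.43, -1.38 and -1.48 on control arrays 1 to 3 and -1.91, -1.85 and -1.82 on Cd arrays 1 to 3. The groups were apart, at -1.43 ± 0.047 (SD, n = 3) and -1.86 ± 0.042 (SD, n = 3). The difference was -0.43 (exact 2-sided permutation p = 0.1, the smallest that 3 against 3 arrays allow, adjusted 0.15 over 3 quantities), and it lay between -0.45 and -0.35 in the 12 alternatives computed.

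In the supernatant the same quantity was -0.15, -0.41 and -0.55 in control and -0.62, -0.57 and -0.80 in Cd. Control array 3 and Cd array 2 nearly met, and the difference was -0.29 (exact permutation p = 0.1, adjusted 0.15). Without control replicate 1, the array with the fewest probes above background, it was -0.18 (exact permutation p = 0.2), and without Cd replicate 3 as well it was -0.11. The IP minus the supernatant value, which was added after the data were seen, differed by -0.14 (exact permutation p = 0.3), and by 0.034 before dye normalization. A difference between the fractions in this quantity was therefore not shown.

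**Figure D5:**
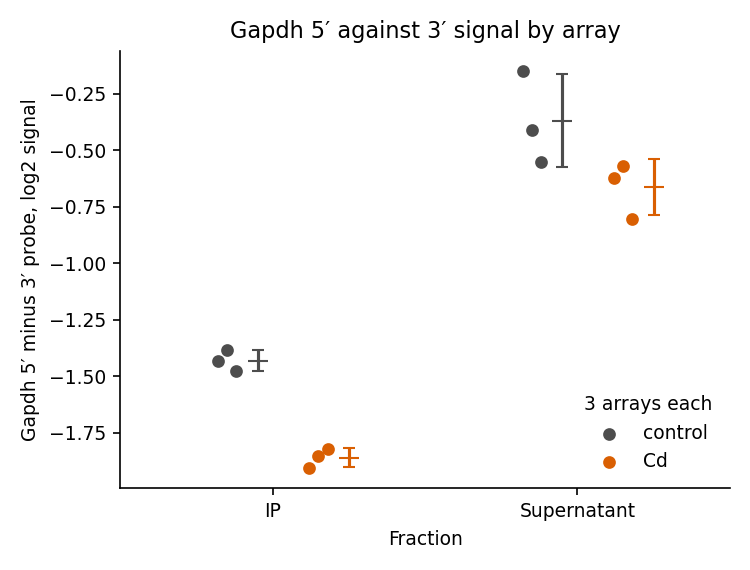
Log2 signal of the Gapdh 5′ probe minus that of the 3′ probe on the same array, in the IP and in the supernatant; points are single arrays and bars the group mean ± SD (n = 3). In the IP the Cd arrays (-1.91 to -1.82) lie below the control arrays (-1.48 to -1.38), and in the supernatant the groups nearly meet.

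Human and rat Gapdh 5′ control probes on the same arrays departed from the mouse 5′ probe on Cd array 3. The human GAPDH 5′ probe gave, relative to the 75th percentile, 2.26, 1.89 and 2.64 in the IP of control arrays 1 to 3 and 1.27, 1.37 and 4.34 in that of Cd arrays 1 to 3. Cd arrays 1 and 2 were below all control arrays, as for the mouse probe, but Cd array 3 was above them. The rat GAPDH 5′ probe gave 1.74, 1.41 and 2.12 in control and 1.12, 1.14 and 2.94 in Cd, again with Cd array 3 the highest. The human GAPDH 3′ probe had the same pattern, at 5.74, 5.54 and 5.72 in control and 4.88, 4.94 and 6.57 in Cd. The rat GAPDH 3′ probe did not, as Cd array 3, at 3.53, lay within the control range of 3.37 to 3.62. The 5′ minus 3′ difference was not computed for the human and rat probes. These probes were named after their values were seen. Mouse Gapdh 5′ in the IP was at 4.54 on Cd array 3, beside 4.50 and 4.52 on Cd arrays 1 and 2, and the part of the human and rat signal in the Gapdh result was not tested.

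Pgk1, which transfers a phosphate to ADP in the step after Gapdh, had the widest spread in level between arrays among the 4 measured probes. The 3′ probe had IP intensities of 7694, 24962 and 15043 on control arrays 1 to 3 and 21199, 19597 and 9365 on Cd arrays 1 to 3. Its supernatant intensities were 5221, 13151 and 10070 in control and 10055, 11522 and 4530 in Cd. Control array 2 was the highest of all and control array 1 and Cd array 3 the lowest, so the groups overlapped widely. The IP signal was 1.61 times the supernatant signal in control and 1.95 times in Cd.

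The centred log2 ratio of Pgk1 3′ was 0.53, 0.95 and 0.57 in control and 1.08, 0.81 and 0.97 in Cd, overlapping at control array 2. The mean was 0.68 ± 0.23 (SD, n = 3) in control and 0.95 ± 0.14 (SD, n = 3) in Cd, a difference of 0.27 (limma, SE 0.25, 95% interval -0.30 to 0.83, adjusted p = 0.96). The RNA level was 4.30, 5.27 and 4.61 in control and 4.86, 4.88 and 3.85 in Cd, and its difference of -0.20 had a 95% interval of -1.03 to 0.63 (limma, adjusted p = 0.88). Within arrays the SD of the ratio over spots was at most 0.13, beside an SD of the ratio between arrays of 0.23 in control and 0.14 in Cd. The level had an SD between arrays of 0.50 in control and 0.59 in Cd.

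Single arrays set the direction of the Pgk1 3′ level. Without Cd replicate 3 its difference was 0.14 and without control replicate 2 it was 0.077, while without control replicate 1 it was -0.41, without Cd replicate 1 -0.36 and without Cd replicate 2 -0.37. The difference was -0.13 in the IP (limma, SE 0.39, adjusted p = 0.95) and -0.36 in the supernatant (limma, SE 0.35, adjusted p = 0.73), with overlapping groups in both. Without Cd replicate 3 these became 0.20 and 0.0054, and with normexp background correction 0.24 and -0.090. No direction can be given for the amount of Pgk1 RNA.

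The Pgk1 5′ probe gave mean intensities of 24.3 to 52.2 in the IP and 50.1 to 91.0 in the supernatant. Of 59 spots used over the 6 arrays, 2 were well above background in the IP and 3 in the supernatant. No fold is given for it, and the 5′ and 3′ ends of Pgk1 were not compared, since the signal at the 5′ end is only a bound.

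Across the 4 measured probes, 16 tests were made, and 0 passed an adjusted limma p of 0.05, while 1, the Gpi1 ratio, had an unadjusted p under 0.05. In RNA level, IP and supernatant, 0% of all probes tested passed the adjusted threshold, and unadjusted p fell under 0.05 for 10.3%, 8.01% and 9.56% of them. The median difference of the 4 probes was 0.17 in the ratio, -0.11 in RNA level, -0.075 in the IP and -0.35 in the supernatant, beside medians over all probes of 0.041, -0.0012, 0.026 and 0.013. In the supernatant all 4 means were lower in Cd, by 0.051 to 0.37, and none of the 4 had groups that did not overlap, against 18.1% of all 26918 probes tested (11.5% higher and 6.65% lower in Cd). Both Gapdh probes are among the 4. The named catalogue probes, Gpi1 included, leaned the same way: in the supernatant 20 of 27 were lower in Cd and 7 higher (median -0.20). In RNA level 28 of 36 were lower and 8 higher (median -0.18), and in the IP 25 were lower and 11 higher (median -0.20). The 3 replicates per group limited the precision: over all probes the median half-width of the 95% interval was 0.69 for the ratio and 0.55 for RNA level.

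The ratio of Gpi1 was next set against those of the other enzymes on the same array, which removes the centring. Gpi1 minus Gapdh 3′ was 0.65, 0.90 and 0.95 in control and 1.89, 1.29 and 1.45 in Cd, a difference of 0.71. Gpi1 minus Gapdh 5′ was 1.94, 1.88 and 1.87 in control and 3.17, 2.58 and 2.47 in Cd, a difference of 0.84. Gpi1 minus Pgk1 3′ was 0.85, 0.40 and 1.00 in control and 1.45, 1.04 and 1.27 in Cd, a difference of 0.50.

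In these 3 comparisons every Cd array was above every control array, and each had an exact 2-sided permutation p of 0.1, the smallest possible (adjusted 0.15 over 6 such quantities, all chosen after the data were seen). All 3 use the same Gpi1 ratios, whose groups already did not overlap, so they are not independent of that result or of one another. How often other pairs of probes were apart in this way was not computed. The difference from Gapdh 3′ was 0.43 or more in all 12 alternatives and that from Gapdh 5′ also 0.43 or more, but that from Pgk1 3′ was 0.054 with normexp background correction, 0.063 before dye normalization and 0.32 without control replicate 2. Gapdh 3′ minus Pgk1 3′ differed by -0.21 between the groups, with overlap (exact permutation p = 0.5), and single arrays moved it: it was -0.063 without control replicate 1, -0.13 without Cd replicate 1 and -0.42 without control replicate 2 (exact permutation p = 0.1, the smallest possible). It was -0.38 with normexp background correction and -0.40 before dye normalization. Gpi1 minus Gapdh 3′ differed by 0.39 in the IP (exact permutation p = 0.1) and by -0.32 in the supernatant (exact permutation p = 0.2). The IP value was 0.25 with normexp background correction and 0.25 before dye normalization, and the supernatant value was -0.14 without control replicate 1 and -0.18 with normexp.

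Of 43 genes of glycolysis and connected steps sought on the array, only these 3 had a named probe, so no other enzyme, glucose transporter or lactate dehydrogenase can be set beside them. Among the 27 named catalogue probes in the ratio test, 19 were higher and 8 lower in Cd, 0 passed, and Gpi1 had the largest positive difference and the smallest unadjusted limma p. The named probes whose ratio varied most like that of Gpi1 over the 6 arrays, of 26 compared, were Prdx2, a peroxiredoxin that reduces hydrogen peroxide, and next Acaa2, the thiolase of mitochondrial fatty acid oxidation. Their root mean square difference from Gpi1, after each probe's mean was subtracted, was 0.22 and 0.27, beside a deviation of 0.44 of Gpi1 about its own mean. The same measure was 0.33 for Pgk1 3′, 0.41 for Gapdh 3′ and 0.47 for Gapdh 5′. The ratios of Prdx2 and Acaa2 differed between Cd and control by 0.40 and 0.43 (limma, adjusted p = 0.96 for each). Both were picked for likeness to the Gpi1 ratio over these same arrays, so the choice itself favoured a difference in its direction. These differences are therefore not separate evidence of a shared change.

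In RNA level the 3 most alike of 35 named probes were Rps4l, a ribosomal protein S4 like gene, Apoe, which encodes the lipid carrier apolipoprotein E, and Acaa2, at 0.17, 0.20 and 0.21. The level of Gpi1 itself deviated from its mean by 0.19, so the likeness in level was no closer than a flat profile for the named probes other than Rps4l. Gapdh 3′ stood at 0.19 on this measure.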

How the data were processed

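Sperm RNA of 3 control and 3 Cd samples was measured on 6 two-colour arrays. Per the file headers, the deposited scanner files hold spot intensity in red (Cy5, IP) and green (Cy3, supernatant), background-subtracted and dye-normalized by Agilent Feature Extraction 11.0.1.1, which the submitters' processing notes also name. The log10 ratio (red over green) deposited beside them equalled the one from the processed signals to within 3.9e-07. Spots with an outlier flag were removed and the others averaged as log2 values. The ratio was centred on the array median, and IP, supernatant and their sum were set to the 75th percentile, over non-control probes. A probe was tested when well above background on at least 3 of 6 arrays; the Gapdh and Pgk1 control probes were added to each fit. limma 3.58.1 (lmFit and eBayes, R 4.3.3) was fitted over all probes, 2-sided, with Benjamini-Hochberg adjustment at 0.05 and no block; it was tested on simulated data. Differences between probes on 1 array were tested by exact permutation over arrays. All p-values measure the spread between samples labelled as biological replicates. Besides the members, genes of the glycolysis and marker lists with a named probe and the 3 probes most like Gpi1 were named, except 1 that is not reported here. Gene symbols of 45 of 50 catalogue probes came from RefSeq's table for GRCm38.p6. Probe sequences were not used here. The members and lists were chosen with earlier results of these data known. Plots used Python 3.11.15 and matplotlib 3.10.9. Alternatives changed the background correction, dye step, scaling, filter, spot average, moderation, block and arrays.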

Additional observations from a re-analysis of the deposited data

Results flagged for a closer look

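Signals of control probes for other species stood out on 1 array. The human GAPDH 5′ probe on Cd replicate 3 was above the highest control array by 1.70 log2 units in the IP and by 2.00 in the supernatant. The rat GAPDH 5′ probe on the same array was above the highest control array by 1.28 log2 units in the supernatant.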

How the results depend on the processing

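The 25 results were recomputed in 388 alternatives, of which 366 kept the direction and the side of the threshold, 22 turned the direction, and 0 made a result pass. Results tested by exact permutation could not pass 0.05 in any alternative, since the smallest possible p was 0.1. Their side of the threshold was thus fixed in advance. Alternatives that changed only the filter, the block or the variance model could not turn a direction, since they leave the difference of a probe unchanged. All results that turned had overlapping groups; the cause was not tested. Normexp background correction (offset 50) started from the raw signals, before the dye step, so its changes cannot be credited to the background alone. With it the level turned to 0.30 for Gapdh 3′ and 0.12 for Pgk1 3′, the IP to 0.27 and 0.24, and the supernatant to 0.14 for Gpi1 and 0.32 for Gapdh 3′. Before dye normalization the Gapdh 3′ ratio was -0.21 and the IP minus supernatant value of Gapdh 5′ minus 3′ was 0.034. Without both control replicate 1 and Cd replicate 3, Gapdh 3′ was 0.0096 in level and 0.0087 in the IP, and the Gapdh 5′ ratio was -0.27.

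Leaving out 1 replicate at a time gave, for the ratio, 0.61 to 0.95 for Gpi1, -0.015 to 0.13 for Gapdh 3′, -0.22 to 0.028 for Gapdh 5′ and 0.19 to 0.40 for Pgk1 3′. For the level it gave 0.14 to 0.33, -0.045 to 0.027, -0.45 to -0.28 and -0.41 to 0.14, in the same order. For the IP it gave 0.25 to 0.47, -0.084 to 0.020, -0.49 to -0.43 and -0.36 to 0.20, and for the supernatant -0.52 to -0.26, -0.14 to 0.054, -0.47 to -0.17 and -0.60 to 0.0054. Gapdh 5′ minus 3′ ranged from -0.45 to -0.41 in the IP, from -0.39 to -0.18 in the supernatant and from -0.25 to -0.066 for IP minus supernatant.

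Same-numbered arrays of the groups did not deviate together in the ratio (r between -0.12 and -0.051 over probes). In level r was -0.41, 0.43 and 0.0038 for numbers 1 to 3, and in the IP -0.26, 0.41 and -0.12. For the supernatant it was -0.39, 0.13 and 0.11. The sign thus differed between numbers, and no pairing was used in the main fit. With the replicate block the Gpi1 ratio difference was 0.77 (limma, SE 0.30, adjusted p = 1.00), and the block changed no call among the member probes. Over all probes, 1 passed in the ratio and 0 with the block, with normexp, before dye normalization, with a filter on all 6 arrays or with no filter, while 2 passed without variance moderation. In the supernatant 0 passed, and 1 with a variance trend, with a filter on all 6 arrays or without Cd replicate 3. Without the filter the median difference of all probes moved to -0.25 in level, -0.31 in the IP and -0.28 in the supernatant. Scaling to spike-ins rested on 1 probe. The submitters' series table could not be used, since it holds 0 of the member probes, and a slide or scan block could not be fitted, since each scan holds 1 group.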

Other observations

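Other control probes of the same enzymes were read on all arrays. The human PGK1 3′ probe was well above background on all 6 arrays, with IP intensities of 7189 ± 3605 (SD, n = 3) in control and 8610 ± 170 (SD, n = 3) in Cd. In the IP, relative to the 75th percentile, it was 3.48, 4.54 and 4.04 on control arrays 1 to 3 and 4.13, 4.13 and 4.23 on Cd arrays 1 to 3. Control array 2 was the highest and control array 1 the lowest among the control arrays, as for mouse Pgk1 3′, but Cd array 3, the lowest for mouse Pgk1 3′, was not low. The rat PGK1 3′ probe was well above background on 1 array, control replicate 2, with an IP intensity of 479. The human GAPDH 3′ probe had a log2 ratio of IP over supernatant, not centred, of 0.81 on Cd replicate 3 and of -0.53 to 0.15 on the other 5 arrays, while mouse Gapdh 3′ had 0.86 on that array and 0.42 to 0.76 on the others.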
